A study of Apis mellifera with 10 samples.

Results

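Serotonin, dopamine, octopamine and tyramine are biogenic amines, small transmitters and hormones that act on insect neurons, muscles and glands through G protein-coupled receptors. The 9 honey bee (Apis mellifera) receptor genes described here were those listed by symbol in the RefSeq gene table of the assembly Amel_HAv3.1, and all 9 were found among 12332 counted bee genes by their coordinates. They comprise 5-HT1, 5-HT2alpha, 5-HT2beta and 5-ht7 for serotonin, Dop1, DopR2 and Dop3 for dopamine, Oa1 for octopamine and TyrR for tyramine. Amine receptor genes that carry only an LOC number were not analysed here.

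RNA came from antennae of adult bees removed within 24 hours of emergence. The orco_KO bees had received, as embryos, a CRISPR ribonucleoprotein against orco, whose product pairs with insect odorant receptors to build an ion channel, and the control bees had received injection buffer alone. All were reared in the laboratory. There were 5 orco_KO libraries, numbered 3, 5, 9, 11 and 12, and 5 control libraries, numbered 3, 4, 5, 6 and 7. The labels give neither strain, caste nor whether each library was a single bee, nor do they describe an established mutant line. The p-values measure only the spread between these libraries. Assigned reads ranged from 8577416 to 18308425 in orco_KO and from 9497211 to 23453690 in control libraries. Control replicates 6 and 7 had the most reads of all libraries, 21580111 and 23453690. The orco gene, listed as Or2, was at 22.9 ± 9.33 CPM in orco_KO and at 383 ± 82.6 CPM in control libraries (SD, n = 5 each), with every orco_KO library below every control. On the second principal component of all tested genes, control replicates 6 and 7 scored 21.6 and 26.7 while control replicates 3, 4 and 5 scored -58.0, -10.9 and -22.4. In orco_KO, replicate 5 scored -15.3 and the others 11.1 to 17.2. On this component, with 20.5% of the variance, control replicates 3, 6 and 7 and orco_KO replicate 5 thus stood apart within their groups. On the first component, with 37.4%, control replicates 6 and 7 scored 44.8 and 49.0 and the other controls 15.1 to 27.0. There the orco_KO libraries ran from -52.6 in replicate 5 and -39.8 in replicate 3 to -15.4 in replicate 9. Each receptor's change is given with and without control replicates 6 and 7, and calls that changed without another single library are named. CPM here means reads scaled to a common library total after TMM scaling, edgeR's correction for library composition.

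These receptors work by raising or lowering cyclic AMP or by releasing calcium in the cell. In the honey bee, 5-ht7, Dop1 and DopR2 raise cyclic AMP, 5-HT1, Dop3 and TyrR lower it, and 5-HT2alpha, 5-HT2beta and Oa1 act through calcium. Octopamine is known in insects for tuning the sensitivity of sensory neurons, and antennal neurons that detect odours are among its targets. Tyramine is the precursor from which octopamine is made.

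The receptor genes are long. Their spans ran from 16.3 kb for Oa1 to 399 kb for 5-ht7, while the median bee gene spanned 3.61 kb. Reads were counted over the whole span, introns included, so the values mix spliced and unspliced RNA. Counts of single receptors ranged from 39 to 3718 reads per library. Together the 9 genes took 0.0255% ± 0.00635 of assigned reads in orco_KO and 0.0244% ± 0.00413 in control libraries (SD, n = 5 each), and the ranges of the groups overlapped (0.0196% to 0.0342% and 0.0183% to 0.0281%).

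Of the 9 receptors only Oa1 passed the edgeR test, and it was lower in orco_KO. Over 9222 genes, at a Benjamini-Hochberg adjusted p below 0.05, the edgeR quasi-likelihood test called 1 of 9 receptors lower, where it called 7.98% of all tested genes lower. It called 0 of 9 higher, where 4.57% of all tested genes were higher. Before adjustment, p was below 0.05 for 1 lower and 4 higher receptors, against 14.3% and 11.7% of all tested genes. DESeq2 gave 1 lower and 2 higher receptors (all genes 8.94% and 8.46%), and limma-voom called 1 lower and 1 higher (all genes 7.99% and 5.61%). The fitted change was positive in 7 of the 9 receptors and in 44.8% of all tested genes. The median log2 fold change was 0.35 over the receptors and -0.06 over all tested genes. The groups did not overlap in 0 of the 9 receptors, while they did not overlap in 7.45% of all tested genes on the lower side and 3.76% on the higher side. All 9 receptors passed the filter on low counts.

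**Figure D1:**
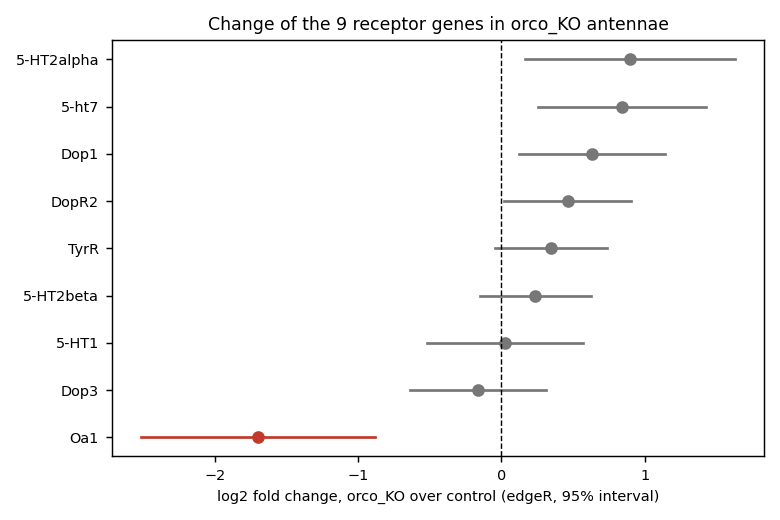
Log2 fold change of each receptor in orco_KO over control libraries (x axis, edgeR) with its unadjusted 95% interval; receptors run down the page by size of change, and red marks an adjusted p below 0.05. Oa1 stands at -1.69 with an interval wholly below 0, and the other 8 lie between -0.16 and 0.90.

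Oa1 encodes an octopamine receptor of the alpha-adrenergic-like kind. It lies on linkage group 15, positions 3310369 to 3326664 on the reverse strand, and no other gene overlaps it. It was at 9.73, 17.0, 7.58, 8.28 and 10.3 CPM in orco_KO replicates 3, 5, 9, 11 and 12, against 41.1, 36.8, 55.9, 27.2 and 9.21 CPM in control replicates 3 to 7. The orco_KO libraries were all below control replicates 3 to 6, but control replicate 7 lay within their range, so 2 of 5 orco_KO libraries were below every control. The means were 10.6 ± 3.74 CPM in orco_KO and 34.1 ± 17.3 CPM in control libraries (SD, n = 5 each). Oa1 fell by 1.69 on the log2 scale (SE 0.380; 95% interval -2.51 to -0.88; edgeR adjusted p = 0.00901), which is 3.24-fold lower.

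The Oa1 call did not rest on any single library. In the 10 fits that each left out 1 library the log2 fold change ranged from -1.94 to -1.44, and the adjusted p from 1.99e-04 to 0.0284. It was -1.90 without orco_KO replicate 5 and -1.60 without control replicate 3. Without control replicates 6 and 7 together the log2 fold change of Oa1 was -2.09 (edgeR adjusted p = 1.24e-04), and all 5 orco_KO libraries were below the 3 remaining controls. In antennal RNA fewer cells of a type and less RNA per cell cannot be told apart.

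**Figure D2:**
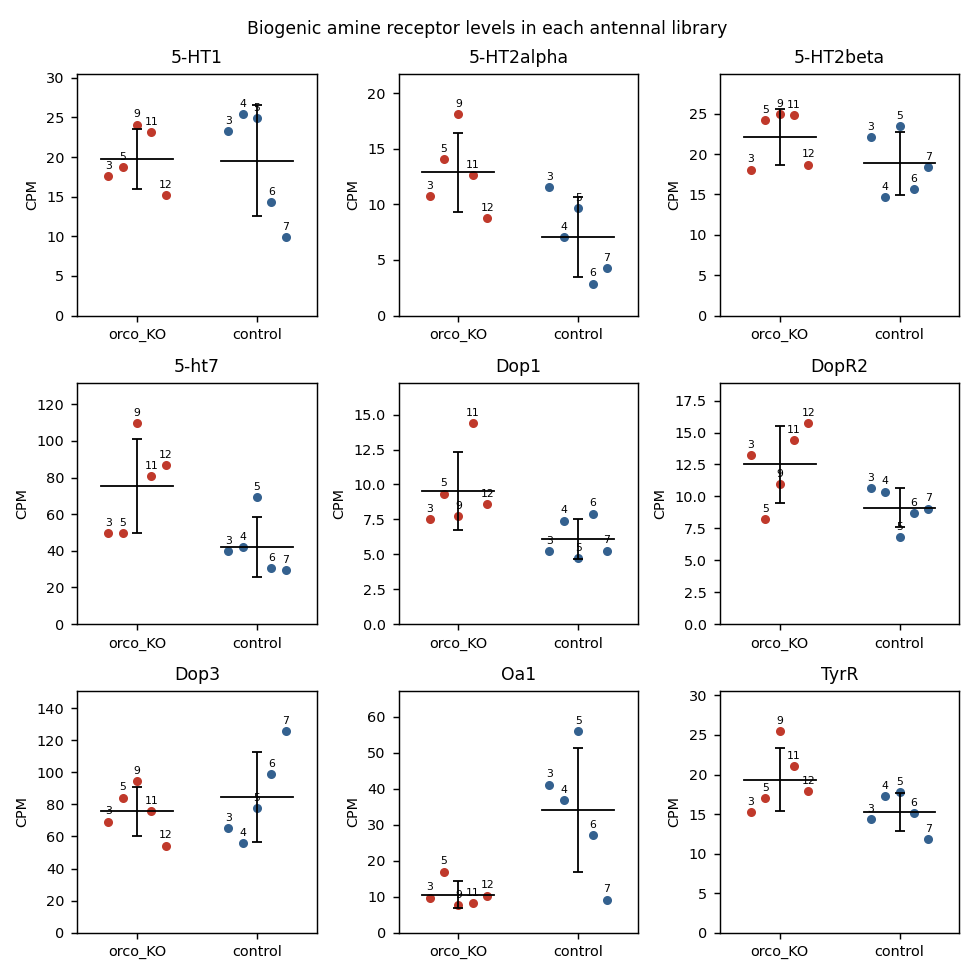
CPM of each receptor (y axis, from 0) in the 5 orco_KO and 5 control libraries; points are libraries with their numbers, and bars give the mean ± SD. Oa1 is low in all orco_KO libraries and in control replicate 7, while for 5-HT2alpha, 5-ht7 and Dop1 the highest values are orco_KO libraries and the groups overlap.

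TyrR, the tyramine receptor gene, did not pass the test. It lies on linkage group 1, positions 15771885 to 15849170 on the reverse strand. It was at 15.3, 17.0, 25.4, 21.1 and 17.9 CPM in orco_KO replicates 3, 5, 9, 11 and 12, against 14.4, 17.3, 17.8, 15.1 and 11.8 CPM in control replicates 3 to 7. The groups overlapped, with 3 orco_KO libraries above every control. The log2 fold change was 0.35 (SE 0.182; 95% interval -0.05 to 0.74; edgeR adjusted p = 0.249), and 0.23 without control replicates 6 and 7 (edgeR adjusted p = 0.588).

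The TyrR count covers only part of the gene. Other genes on the same strand cover 74.7% of its span, and reads in shared stretches are left out by the counting, so 19.5 kb of 77.3 kb could collect reads. The protein-coding gene LOC412949 covers 52.1% of TyrR and was at 27.5 ± 5.57 CPM in orco_KO and 33.4 ± 7.05 CPM in control libraries (SD, n = 5 each; edgeR adjusted p = 0.380). The noncoding RNA gene Ks-1, known from mushroom body neurons of the bee brain, lies wholly inside TyrR, which leaves it no countable base, and it has 0 reads in every library.

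In the serotonin family no gene passed the edgeR test, and 5-ht7 came closest. The gene 5-ht7, on linkage group 6 at positions 633583 to 1032488 on the reverse strand, was at 49.7, 49.8, 110, 80.6 and 86.9 CPM in orco_KO replicates 3, 5, 9, 11 and 12, against 39.7, 42.0, 69.5, 30.4 and 29.3 CPM in control replicates 3 to 7. Only control replicate 5 reached into the orco_KO range, and 3 orco_KO libraries were above every control. The log2 fold change was 0.84 (SE 0.273; 95% interval 0.26 to 1.43; edgeR adjusted p = 0.0598; DESeq2 adjusted p = 0.0190). Single libraries decided the edgeR call: the adjusted p was 0.0134 without control replicate 5, 0.0468 without orco_KO replicate 3 and 0.0405 without orco_KO replicate 5. Without control replicates 6 and 7 together it was 0.249, with a log2 fold change of 0.58, and over all alternatives run it ranged from 0.0134 to 0.977.

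The gene 5-HT2alpha, on linkage group 9 at positions 8766576 to 8797600 on the reverse strand, had a log2 fold change of 0.90 (SE 0.340; 95% interval 0.17 to 1.63; edgeR adjusted p = 0.106). Its levels were 10.8, 14.1, 18.1, 12.7 and 8.75 CPM in orco_KO replicates 3, 5, 9, 11 and 12, against 11.6, 7.03, 9.68, 2.88 and 4.25 CPM in control replicates 3 to 7. Control replicates 6 and 7 were the lowest of the 10 libraries, and control replicate 3 lay above 2 orco_KO libraries. Without control replicate 3 the edgeR adjusted p was 0.0340 with a log2 fold change of 1.16, and without control replicates 6 and 7 together it was 0.338 with a log2 fold change of 0.47. Over all alternatives run it ranged from 0.0339 (limma-voom) to 0.846.

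The other serotonin receptors had the smaller fitted changes of the family. The gene 5-HT2beta, on linkage group 10 at positions 5304754 to 5424158 on the reverse strand, was at 22.1 ± 3.44 CPM in orco_KO and 18.8 ± 3.86 CPM in control libraries (SD, n = 5 each; log2 fold change 0.24, 95% interval -0.15 to 0.62, edgeR adjusted p = 0.447). The libraries overlapped, from 18.1 to 24.9 CPM in orco_KO and from 14.6 to 23.4 CPM in control libraries, and leaving out control replicates 6 and 7 gave a log2 fold change of 0.15 (edgeR adjusted p = 0.757). For 5-HT1, on linkage group 13 at positions 4679854 to 4786005 on the forward strand, the means were 19.8 ± 3.78 CPM in orco_KO and 19.6 ± 7.01 CPM in control libraries (SD, n = 5 each; log2 fold change 0.02, 95% interval -0.52 to 0.57, edgeR adjusted p = 0.965). Levels of 5-HT1 ran from 15.2 to 24.1 CPM in orco_KO. Its control mean joins unlike libraries: replicates 3, 4 and 5 were at 23.3, 25.4 and 24.9 CPM, and replicates 6 and 7 at 14.3 and 9.91 CPM. Its sign turned to -0.31 without control replicates 6 and 7 (edgeR adjusted p = 0.390).

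No dopamine receptor passed the edgeR test either. Dop1, on linkage group 15 at positions 7337783 to 7381156 on the forward strand, was at 7.53, 9.35, 7.74, 14.4 and 8.61 CPM in orco_KO replicates 3, 5, 9, 11 and 12, against 5.24, 7.41, 4.70, 7.91 and 5.26 CPM in control replicates 3 to 7. The groups overlapped through control replicate 6, and 3 orco_KO libraries were above every control. The log2 fold change was 0.63 (SE 0.237; 95% interval 0.12 to 1.14; edgeR adjusted p = 0.102; DESeq2 adjusted p = 0.0441). It was 0.71 without control replicates 6 and 7, with all 5 orco_KO libraries above the 3 remaining controls and an edgeR adjusted p of 0.158.

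DopR2, a dopamine receptor of the invertebrate-specific kind that also raises cyclic AMP, lies on linkage group 15 at positions 6339308 to 6402471 on the forward strand. It was at 12.5 ± 2.99 CPM in orco_KO and 9.11 ± 1.53 CPM in control libraries (SD, n = 5 each). There 4 of 5 orco_KO libraries were above every control, and orco_KO replicate 5, at 8.20 CPM, was not. The log2 fold change was 0.46 (SE 0.206; 95% interval 0.02 to 0.91; edgeR adjusted p = 0.171), and 0.44 without control replicates 6 and 7 (edgeR adjusted p = 0.350). Reads from antisense genes, which cover 29.8% of Dop1 and 4.77% of DopR2, are kept apart by the stranded counting.

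Dop3, the receptor of the vertebrate D2 kind, was the dopamine receptor with the highest level in both groups. It lies on linkage group 9, positions 10181294 to 10324139 on the reverse strand. It was at 69.2, 84.1, 94.3, 75.8 and 54.3 CPM in orco_KO replicates 3, 5, 9, 11 and 12, against 65.3, 55.6, 77.6, 98.9 and 125 CPM in control replicates 3 to 7. Control replicates 6 and 7 were the highest of all 10 libraries, while among the controls they were the lowest for Oa1, 5-HT1, 5-HT2alpha and 5-ht7. The log2 fold change was -0.16 (SE 0.221; 95% interval -0.64 to 0.31; edgeR adjusted p = 0.691), and 0.19 without control replicates 6 and 7. A gene on the other strand, LOC102654507, covers 78.3% of Dop3.

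The receptors differed in how much they varied between libraries of a group. Among orco_KO libraries the coefficient of variation ran from 15.6% for 5-HT2beta to 35.4% for Oa1. Among control libraries it ran from 15.8% for TyrR to 51.2% for 5-HT2alpha, with Oa1 at 50.8% and a 6.07-fold gap between its highest and lowest control. The level in control replicates 6 and 7 relative to replicates 3 to 5 was 0.408 for Oa1, 0.378 for 5-HT2alpha, 0.494 for 5-HT1 and 0.593 for 5-ht7, and it was 1.69 for Dop3 and 1.14 for Dop1.

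Levels were compared between genes as CPM per kb of the span that could collect reads. On that scale the order of the orco_KO means was TyrR (0.991), Oa1 (0.649), Dop3 (0.529), 5-HT2alpha (0.415), Dop1 (0.220), DopR2 (0.198), 5-ht7 (0.189), 5-HT1 (0.186) and 5-HT2beta (0.185). In control libraries it was Oa1 (2.09), TyrR (0.782), Dop3 (0.592), 5-HT2alpha (0.228), 5-HT1 (0.184), 5-HT2beta (0.158), DopR2 (0.144), Dop1 (0.141) and 5-ht7 (0.106). TyrR ranked first in 4 of 5 orco_KO libraries and Oa1 in the other, while Oa1 ranked first in 4 of 5 control libraries and Dop3 in control replicate 7. The place of TyrR rests on the length it is divided by: over its whole span, most of which could not collect reads, its mean would be 0.25 CPM per kb in orco_KO and 0.20 CPM per kb in control libraries, which is place 4 of 9 in each group. Introns weigh on this scale, so a gene with long introns that collect few reads appears low.

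Most neighbours in this order changed places between libraries. In orco_KO 2 of 8 neighbouring pairs kept their order in all 5 libraries, Dop3 above 5-HT2alpha and 5-HT2alpha above Dop1, though the ranges of each pair overlapped. In control libraries 1 of 8 pairs kept its order in all 5 libraries. It was also the only pair whose ranges did not meet: Dop3, whose lowest value was 0.389 CPM per kb, and 5-HT2alpha, whose highest was 0.373 CPM per kb.

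**Figure D3:**
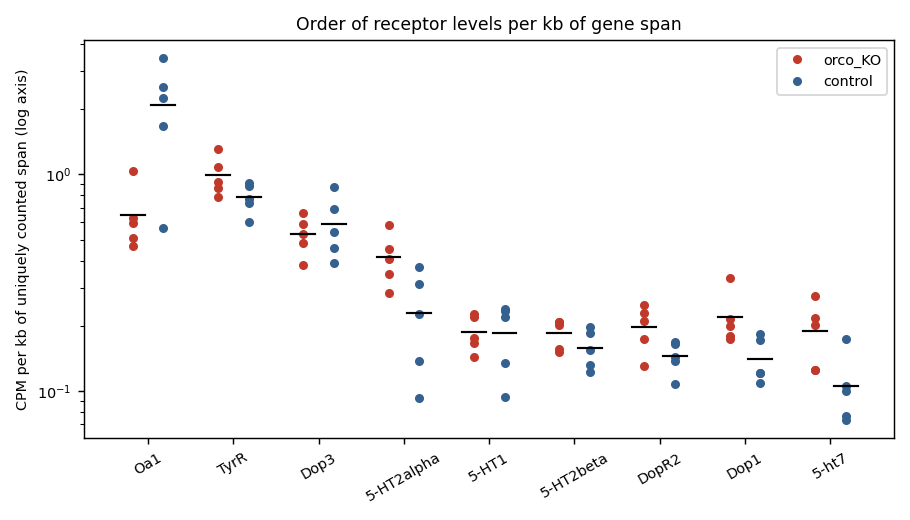
CPM per kb of uniquely counted gene span (y axis, log scale) for each receptor, with orco_KO (red) left of control (blue); points are libraries and black lines are means. TyrR, divided by the part of its span that could collect reads, has the highest mean in orco_KO (0.991) and Oa1 the highest in control libraries (2.09).

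Related receptors were set against each other within each library, since a ratio of counts from the same library does not depend on its scaling. There were 4 pairs, each compared by a two-sided exact permutation test of the group labels, for which the smallest possible p is 0.00794, with adjustment over the 4 pairs. The pair of Oa1 and TyrR had the lowest p. Its mean log2 ratio was -0.91 ± 0.67 in orco_KO and 0.95 ± 0.80 in control libraries (SD, n = 5 each; difference -1.85; exact permutation p = 0.0159, adjusted p = 0.0529). The orco_KO ratios ran from -1.74 to 0.00, and control replicate 7, at -0.36, was the only control inside that range. Without control replicates 6 and 7 the difference was -2.32, with all orco_KO ratios below the 3 remaining controls. The exact permutation p was 0.0179, the smallest that 5 against 3 libraries allow, and 0.0714 after adjustment, so a single separated pair could not pass there.

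No pair passed after adjustment. The log2 ratio of 5-HT2alpha to 5-HT2beta was -0.81 ± 0.24 in orco_KO and -1.56 ± 0.67 in control libraries (SD, n = 5 each; difference 0.75; exact permutation p = 0.0397, adjusted p = 0.0529). Without control replicates 6 and 7 that difference was 0.28. The log2 ratio of 5-HT1 to 5-ht7 was -1.88 ± 0.47 in orco_KO and -1.12 ± 0.39 in control libraries (SD, n = 5 each; difference -0.75; exact permutation p = 0.0397, adjusted p = 0.0529), and the difference was -0.89 without control replicates 6 and 7. For Dop1 to DopR2 the difference was 0.19 (exact permutation p = 0.476, also after adjustment).

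**Figure D4:**
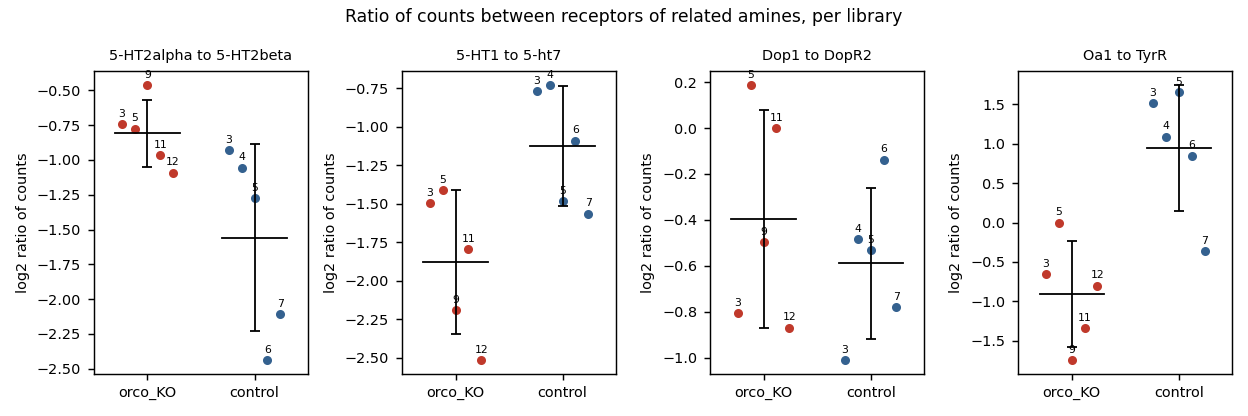
Log2 ratio of the counts of 2 receptors in the same library (y axis) for the 4 pairs, orco_KO left of control; points are libraries with their numbers, and bars give the mean ± SD. For Oa1 to TyrR the group means are -0.91 and 0.95, with control replicate 7 among the orco_KO values.

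Genes of the wider amine pathway were taken from lists of symbols. Most listed symbols matched no symbol in the gene table, so the counts cover a small part of the pathway. Of 28 symbols for synthesis, transport and breakdown 3 were matched, 2 were tested and 0 passed in either direction (edgeR; 0 also before adjustment, by DESeq2 and by limma-voom). Over all tested genes edgeR called 7.98% lower and 4.57% higher. TyHyd, coding for tyrosine hydroxylase, the first enzyme of dopamine synthesis, was at 5634, 7606, 2578, 2393 and 4164 CPM in orco_KO replicates 3, 5, 9, 11 and 12, against 3501, 2371, 2272, 3515 and 2836 CPM in control replicates 3 to 7 (log2 fold change 0.63, edgeR adjusted p = 0.210). The groups overlapped, with 3 orco_KO libraries above every control. Tyrosine hydroxylase is also known for its role in the tanning of insect cuticle, and the cells behind these reads were not tested. Tbh, coding for the enzyme that turns tyramine into octopamine, had a mean of 0.124 CPM in orco_KO and 0.172 CPM in control libraries and was too low to test. Dat was at 2.48 ± 0.398 CPM in orco_KO and 2.21 ± 1.15 CPM in control libraries (SD, n = 5 each; edgeR adjusted p = 0.840).

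Of 44 symbols for signalling below the receptors 4 were matched, and of these 2 fell and 0 rose (edgeR; 0 higher also before adjustment, by DESeq2 and by limma-voom). The edgeR shares over all tested genes were 7.98% lower and 4.57% higher. Before adjustment 3 of the 4 were lower, against 14.3% of all tested genes, and DESeq2 and limma-voom each called 2 lower. Camkii, the calcium and calmodulin-dependent protein kinase, was at 1035 ± 166 CPM in orco_KO and 1907 ± 509 CPM in control libraries (SD, n = 5 each; log2 fold change -0.88, edgeR adjusted p = 0.0114). The same gene is also counted among the neuron markers below. Pkc, a protein kinase C gene, was at 217 ± 29.6 CPM in orco_KO and 421 ± 186 CPM in control libraries (SD, n = 5 each; log2 fold change -0.96, edgeR adjusted p = 0.0301). Ac3, coding for an enzyme that makes cyclic AMP, was at 206 ± 13.7 CPM in orco_KO and 176 ± 49.0 CPM in control libraries (SD, n = 5 each; edgeR adjusted p = 0.489). The gene For, a cyclic GMP-dependent protein kinase, had a log2 fold change of -0.39 (edgeR adjusted p = 0.148).

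Of the symbol-bearing genes compared with Oa1, Camkii had the pattern most like it. Among 328 tested genes whose symbol is no LOC number, log2 CPM over the 10 libraries correlated with that of Oa1 at a Pearson r of 0.951 for Camkii, 0.930 for GluCl, 0.926 for brp, 0.919 for Ef-1a-f1 and 0.914 for NFRKB. These libraries fall into the groups compared, and the values are a description. Camkii, brp and Ef-1a-f1 passed the edgeR test between the groups, while GluCl (edgeR adjusted p = 0.0743) and NFRKB (edgeR adjusted p = 0.157) did not. GluCl codes for a glutamate-gated chloride channel, and brp for a protein of the presynaptic active zone. Like Oa1, brp was highest among orco_KO libraries in replicate 5 (1619 CPM, the others 713 to 974.8 CPM) and lowest among controls in replicates 6 and 7 (1402 and 1139 CPM, the others 3740 to 7352 CPM).

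Most matched neuron markers were lower in orco_KO, as Oa1 was. Of 7 neuron markers, matched from 12 symbols, 6 fell and 0 rose (edgeR; 0 higher also before adjustment, by DESeq2 and by limma-voom), with a median log2 fold change of -1.39. Among all tested genes edgeR called 7.98% lower and 4.57% higher. Their summed level ran from 4342 to 6432 CPM in orco_KO and from 7644 to 18387 CPM in control libraries. Nrx-1, coding for the synaptic adhesion protein neurexin, was at 246 ± 46.5 CPM in orco_KO and 988 ± 152 CPM in control libraries (SD, n = 5 each; log2 fold change -2.01, edgeR adjusted p = 7.08e-06). The calcium channel gene Cac had a log2 fold change of -1.62 (edgeR adjusted p = 3.13e-04) and the sodium channel gene Para one of -1.39 (edgeR adjusted p = 3.70e-04). Syx1A, a syntaxin gene and the seventh marker, was at 945 ± 65.9 CPM in orco_KO and 917 ± 309 CPM in control libraries (SD, n = 5 each). Like Oa1, Syx1A was lowest among controls in replicates 6 and 7 (641 and 606 CPM, the others 863 to 1260 CPM). Cac and Para were also lowest there. Nrx-1 was not: its lowest control was replicate 4 (829 CPM), with replicates 6 and 7 at 873 and 958 CPM. Eaat-2, the only match among 5 symbols listed for glia, ran from 0.232 to 1.60 CPM in orco_KO and from 6.24 to 9.14 CPM in control libraries. Its orco_KO values came from 2 to 31 reads per library, and whether glia gave these reads was not tested. Among the receptors 1 of 9, Oa1, was called lower, against 7.98% of all tested genes. The part of the neuron and glia markers in the Oa1 result was not tested.

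Of 5 muscle markers, matched from 13 symbols, 1 rose and 1 fell (edgeR; before adjustment 3 were higher and 1 lower, by DESeq2 also 3 and 1, by limma-voom 1 and 1), with a median log2 fold change of 0.98. For this list and the next, the edgeR shares over all tested genes were 4.57% higher and 7.98% lower. The troponin gene TpnT rose, with a log2 fold change of 1.17 (edgeR adjusted p = 0.0345). The troponin genes TpnI, at 1.05 (edgeR adjusted p = 0.0939), and TpnCIIIa, at 0.98 (edgeR adjusted p = 0.0594), did not pass. The arginine kinase gene Argk fell by 0.97 on the log2 scale (edgeR adjusted p = 0.00365). Their summed level ran from 2607 to 6807 CPM in orco_KO and from 1964 to 3963 CPM in control libraries. Of 6 hemolymph and fat body markers, matched from 7 symbols, 4 were too low to test, Mrjp1 among them with 0 reads in every control library, and 0 passed (edgeR; 1 was higher before adjustment, 1 by DESeq2 and 0 by limma-voom). Hex110, a hexamerin gene, had a log2 fold change of 2.67 (edgeR adjusted p = 0.0595), and Vg, coding for the yolk protein vitellogenin, one of 0.30 (edgeR adjusted p = 0.805). The summed level of all 6 ran from 20.6 to 82.99 CPM in orco_KO and from 5.34 to 98.5 CPM in control libraries. The part of these tissues in the receptor values was not tested.

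**Figure D5:**
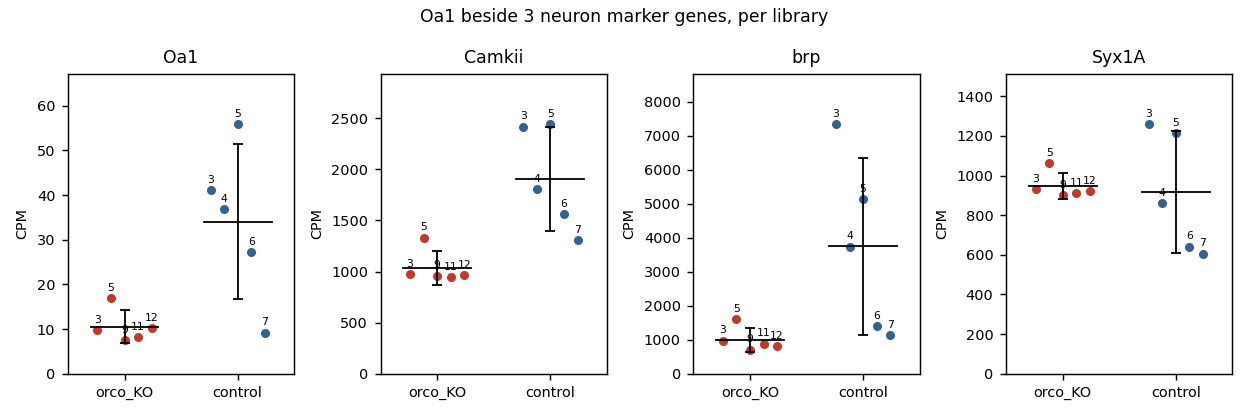
CPM (y axis, from 0) of Oa1 and of the neuron marker genes Camkii, brp and Syx1A in the 5 orco_KO and 5 control libraries; points are libraries with their numbers, and bars give the mean ± SD. Oa1, Camkii and brp are low in orco_KO and lowest among controls in replicates 6 and 7. Camkii and brp are among the genes listed for their high correlation with Oa1. The marker Nrx-1, not drawn, was lowest among controls in replicate 4. Syx1A averages 945 CPM in orco_KO and 917 CPM in control libraries, and it is also lowest among controls in replicates 6 and 7.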

How the data were processed

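The authors deposited unnormalized read counts for every gene, in a table for each library. The submitters' processing notes name STAR 2.7.3a as aligner. Per the file headers, featureCounts (Subread 2.0.0) counted reads over whole gene spans with strand setting 2. Reads shared by overlapping genes on the same strand and multiply mapped reads were left out, as no option kept them. Of 12337 features, 5 virus genomes were left out. Coordinates are those of Amel_HAv3.1.

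The tests ran in edgeR 4.0.16 under R 4.3.3 (filterByExpr, TMM, quasi-likelihood test, no covariates), and figures were drawn with matplotlib 3.10.9. Standard errors come from the F statistic. Alternatives used DESeq2 1.42.0, limma 3.58.1, other scaling, no filter, and fewer libraries. Ratios used 0.5 added to each count. In simulated counts (9099 genes tested), 93.6% of 4-fold and 44.7% of 2-fold decreases, and 98.0% and 54.0% of such increases, were recovered. Receptors and gene lists were chosen with earlier results of these data known. The text names all receptors, up to 4 members of each list with the smallest p, and the 5 symbol-bearing genes most correlated with a called receptor; Syx1A, Tbh and Mrjp1 were named after their values were seen. No 2 libraries held identical counts.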

Additional observations from a re-analysis of the deposited data

Results flagged for a closer look

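Among 18 sets of 5 libraries (9 receptors in each group), 2 held a library far from the other 4 by Dixon's ratio, where chance gives about 1 in 20. Dop1 was at 14.4 CPM in orco_KO replicate 11, against 7.53 to 9.35 CPM in the other orco_KO libraries. Oa1 was at 17.0 CPM in orco_KO replicate 5, against 7.58 to 10.3 CPM in the other orco_KO libraries.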

How the results depend on the processing

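Oa1 was lower and past the threshold in every alternative run, with log2 fold changes from -2.09 (without control replicates 6 and 7) to -1.44 (without control replicate 5). The count of receptors called higher was 2 by DESeq2 (5-ht7 and Dop1), 1 by limma-voom (5-HT2alpha) and 0 to 1 in the fits that left out 1 library. Over all genes, 736 were lower and 421 higher. With 1 library left out the lower count ran from 589 to 791 and the higher count from 250 (without control replicate 6 or orco_KO replicate 3) to 684 (without control replicate 3), with 276 without control replicate 7. DESeq2 called 780 higher, and without control replicates 6 and 7 together 200 were higher. The causes were not tested.

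Without control replicates 6 and 7 the log2 fold change of 5-HT1 was -0.31 and that of Dop3 0.19. With 1 library left out these ran from -0.15 to 0.14 and from -0.28 to 0.021. The ratio difference ran from -2.18 to -1.65 for Oa1 to TyrR, with an adjusted p of 0.0476 without control replicate 3 or 4 and 0.0317 without control replicate 7, and from 0.53 to 0.91 for 5-HT2alpha to 5-HT2beta, with 0.0476 without control replicate 3 or 4.

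The numbers 3 and 5 occur in both groups, with no label that ties them, and the deviations of same-numbered libraries from their group means correlated at 0.08 and 0.14 across genes. With a replicate block on these 4 libraries, 567 genes were lower, 421 higher and Oa1 at -1.85, while 5-HT1 was at -0.37, 5-HT2beta at -0.078, 5-ht7 at -0.040 and Dop3 at 0.14, none of these 4 past the threshold. With so few libraries the spread of a single gene is hardly measured, and these calls lean on spread shared across genes. The same 4 libraries without the block, an alternative chosen after seeing the data, gave 453 lower, 222 higher, and -0.37, -0.066, -0.10 and 0.14. The lowest counts were 39 reads for Dop1 and 57 for DopR2, and what depth adds to their errors was not tested.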

Other observations

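Grouped by the signal they send, which was done after their values were seen and not tested, the 3 receptors that raise cyclic AMP had log2 fold changes of 0.84 (5-ht7), 0.63 (Dop1) and 0.46 (DopR2). The 3 that lower it were at 0.35 (TyrR), 0.02 (5-HT1) and -0.16 (Dop3). Those acting through calcium spread the most, at 0.90 (5-HT2alpha), 0.24 (5-HT2beta) and -1.69 (Oa1).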
